A study of Mus musculus with 3 samples.

Results

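The genes described here are 10 matrix proteases and protease inhibitors, Mmp2, Mmp14, Mmp15, Timp1, Timp2, Timp3, Adamts1, Adamts9, Adam15 and Adam19, chosen by symbol out of the 17583 genes in the deposited table. All 10 were present in the table. The alpha-secretase genes of the same protease family were not among the chosen genes. The values come from 3 EC-RiboTag mice of the genotype Cdh5-CreERT2;Rpl22tm1.1Psam, 1 library per mouse. In these animals a tamoxifen-inducible Cre under the endothelial Cdh5 promoter switches the ribosomal protein RPL22 to a form with an HA tag, so ribosomes of recombined endothelial cells can be pulled out of a heart homogenate and the RNA on them sequenced. The Cdh5 promoter is active in blood vascular, lymphatic and endocardial endothelium alike. The methods describe adult mice on a C57BL/6 background. By their sample labels the hearts were taken 7 days after coronary ligation, whereas the RiboTag methods of the study mention no infarction. A supplementary legend of the study describes a qRT-PCR experiment on endothelial ribosomal RNA of EC-RiboTag hearts from the remote, border and infarct zones on day 7 after infarction. Rz also appears in the titles of the samples, with no explanation there, so whether whole hearts or the remote zone alone were sequenced was not settled here. The 3 libraries form 1 condition, and no input or control library was analysed here. Levels are therefore levels within the immunoprecipitate, and no effect of infarction or of cell type could be tested.

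Matrix metalloproteinases (MMPs) are zinc enzymes that cut collagens, other matrix proteins and cell surface proteins. They are made as inactive precursors, and tissue inhibitors of metalloproteinases (TIMPs) block their active site. ADAM proteases are membrane-anchored relatives that shed the outer parts of surface proteins, and ADAMTS proteases are secreted relatives that bind to the matrix and cut proteoglycans such as versican. In vessels these enzymes are known for opening the basement membrane during sprouting and for limiting it afterwards.

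The 7 proteases share a zinc-binding site in which 3 histidines hold the metal, and the TIMPs have none. To show this on the reference genome, the coding sequence of the canonical transcript of each of the 10 genes was searched for codons of histidine, glutamate, any 2 residues, histidine, any 2 residues, glycine or asparagine, any 2 residues and histidine. Each protease had 1 such site and each TIMP had 0. The stretches of 33 bases are given 5′ to 3′ on the coding strand, from the GENCODE M39 transcripts of GRCm39, with the 3 histidine codons in capitals.
Mmp14: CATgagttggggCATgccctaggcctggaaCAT
Mmp15: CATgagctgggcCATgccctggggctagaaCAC
Mmp2: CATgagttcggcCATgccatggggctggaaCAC
Adamts1: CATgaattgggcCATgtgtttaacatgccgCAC
Adamts9: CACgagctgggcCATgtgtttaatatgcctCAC
Adam15: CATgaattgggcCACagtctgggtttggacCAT
Adam19: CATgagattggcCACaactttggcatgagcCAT
In Adamts1 and Adamts9 the codon at position 8 of the 11 encodes asparagine, whereas it encodes glycine in the other 5 proteases. Of all pairs, Mmp15 and Mmp2 had the most identical bases, 29 of 33, followed by Adamts1 and Adamts9 with 28 of 33. Mmp14 shared 27 bases with both Mmp15 and Mmp2, and Adam15 and Adam19 shared 22. The site lies within exon 5 of Mmp14 (chr14:54675084-54675116, plus strand) and exon 5 of Mmp15 (chr8:96095213-96095245, plus strand), and within exon 8 of Mmp2 (chr8:93565907-93565939, plus strand). In Adam15 it lies within exon 11 (chr3:89252087-89252119, minus strand), as it does in Adam19 (chr11:46015877-46015909, plus strand). In Adamts1 it spans exons 3 and 4 (chr16:85596079-85596433, minus strand) and in Adamts9 exons 8 and 9 (chr6:92882266-92885474, minus strand), so these coordinates include an intron. No window of 72 bases, the read length, of the canonical transcript of any of the 10 genes had an exact copy elsewhere in GRCm39, and none of their bases lay in an exon of another gene on the same strand. Timp1 lies inside Syn1 and Timp3 inside Syn3, both on the opposite strand. Exons on the opposite strand covered 36.7% of the canonical transcript of Timp3, 27.8% of Mmp2 and 26.1% of Adam15. They also covered 11.2% of Adam19, 7.7% of Adamts9 and 6.2% of Mmp14, and no base of the remaining genes. The study counted reads by strand.

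The deposited values are normalized counts rounded to whole numbers, with sums between 7149102 and 7268785, and the libraries were estimated to hold between 6755000 and 7566000 reads on the listed genes. All 10 endothelial markers (Cdh5, Pecam1, Flt1, Kdr, Tek, Tie1, Egfl7, Emcn, Cldn5 and Vwf) were present, and their median level per kilobase lay above 99.2% of genes. RNA of other cells was present as well. The medians lay above 97.9% of genes for the 10 cardiomyocyte markers, 58.8% for the 10 fibroblast markers, 42% for the 10 mural markers, and 35.2% for the 9 leukocyte markers found. The figure was 93.9% for the 5 endocardial markers and 75.7% for the 5 lymphatic markers, both of types of endothelium. For the 4 mesothelial markers it was 18.2%. How much of each gene below comes from endothelial cells and how much from such other RNA was not tested, and in bulk tissue fewer cells of a type and less RNA per cell cannot be told apart. Mouse 1 stood apart in sex-linked genes, with 4 normalized counts of Xist against 618 and 869 in mice 2 and 3, and 1080 of the Y-linked Ddx3y against 3 and 1. By these genes mouse 1 was male and mice 2 and 3 were female. A difference of mouse 1 from the other mice therefore cannot be told apart from a difference of sex.

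The membrane-anchored Mmp15 was the leading gene among the listed MMP genes, and Mmp14 and Mmp2 were far lower. Mmp15 (ENSMUSG00000031790, chromosome 8, 96078896 to 96101708, plus strand) encodes a membrane-type MMP closely related to MMP14. Its normalized count was 2337 in mouse 1, 2346 in mouse 2 and 2250 in mouse 3, a mean of 2311 ± 53.0 (SD, n = 3 mice). The 3 mice were alike, with a highest value 1.04 times the lowest. Mmp14 (ENSMUSG00000000957, chromosome 14, 54669069 to 54682821, plus strand) encodes the membrane-type protease that, together with TIMP2, activates the MMP2 precursor at the cell surface. It had 343, 568 and 462 normalized counts in mice 1, 2 and 3, a mean of 458 ± 113 (SD, n = 3). Mouse 1 was the lowest and mouse 2 the highest, 1.66 times mouse 1. Mmp2 (ENSMUSG00000031740, chromosome 8, 93553919 to 93580048, plus strand) encodes gelatinase A, a secreted protease that cuts basement membrane collagen and denatured collagen. It had 330, 411 and 444, a mean of 395 ± 58.7 (SD, n = 3), again lowest in mouse 1. Every Mmp15 value was above every value of Mmp14 and Mmp2.

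The 3 chosen inhibitor genes spanned the whole range of the 10 genes. Timp3 (ENSMUSG00000020044, chromosome 10, 86136236 to 86185370, plus strand) encodes the TIMP that binds to the extracellular matrix and also inhibits ADAM and ADAMTS proteases. It had 3048, 2994 and 3046 normalized counts, a mean of 3029 ± 30.6 (SD, n = 3), and rank 38 among all genes by mean count. This was the highest count of the 10 genes and the smallest spread, 1.01% of the mean. Timp2 (ENSMUSG00000017466, chromosome 11, 118191887 to 118246566, minus strand), the inhibitor that also takes part in MMP2 activation, had 1602, 1752 and 1834, a mean of 1729 ± 118 (SD, n = 3). Its lowest value was in mouse 1. Timp1 (ENSMUSG00000001131, chromosome X, 20736405 to 20740974, plus strand), an inhibitor known to be induced by injury and inflammation, had 45, 87 and 59, a mean of 63.7 ± 21.4 (SD, n = 3). It was the only gene of the 10 with a mean under 200, and its highest mouse had 1.93 times the value of its lowest. Counting alone would give Timp1 a coefficient of variation (CV, the SD as a percentage of the mean) of about 12.5% at this depth, against the 33.6% observed.

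Both secreted ADAMTS genes were well represented. Adamts1 (ENSMUSG00000022893, chromosome 16, 85590715 to 85600001, minus strand), a versican- and aggrecan-cutting protease that also restrains angiogenesis, had 1376, 1761 and 1791 normalized counts, a mean of 1643 ± 231 (SD, n = 3). Mouse 1 was below the other two, which were nearly equal. Adamts9 (ENSMUSG00000030022, chromosome 6, 92749680 to 92920473, minus strand), a large relative that also cuts versican, had 1339, 1522 and 1599, a mean of 1487 ± 134 (SD, n = 3), with the same mouse lowest. Adam15 (ENSMUSG00000028041, chromosome 3, 89245849 to 89257303, minus strand), a membrane ADAM with an integrin-binding disintegrin domain, had 2333, 2457 and 2206, a mean of 2332 ± 126 (SD, n = 3). Adam19 (ENSMUSG00000011256, chromosome 11, 45946819 to 46038170, plus strand), known as a sheddase of neuregulin with a part in heart development, had 718, 866 and 866, a mean of 817 ± 85.4 (SD, n = 3). Every value of Adam15 was above every value of Adam19.

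**Figure D1:**
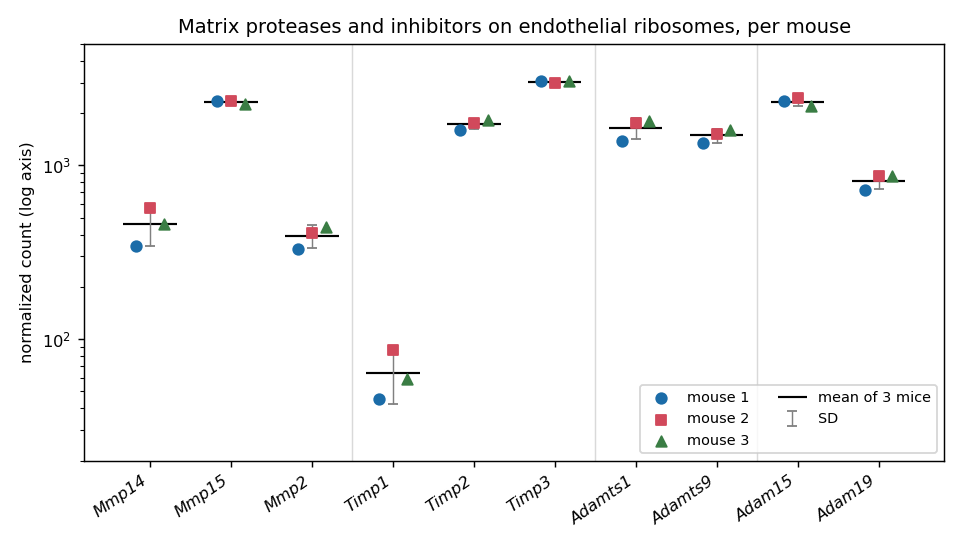
Normalized counts (log axis) of the 10 genes in each of the 3 mice, with the mean as a line and the SD as a bar. Timp3, Adam15 and Mmp15 are the highest with values from 2206 to 3048, and Timp1 is the lowest with 45 to 87.

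A longer transcript gives more reads per molecule, so genes were compared by the normalized count per kilobase of their canonical transcript. On this scale Adam15 was the highest with 825 ± 44.4 per kilobase, followed by Timp3 with 641 ± 6.48, Timp2 with 461 ± 31.4, Mmp15 with 450 ± 10.3 and Adamts1 with 327 ± 46.0 (SD, n = 3 mice each). Below them came Adamts9 with 184 ± 16.6 per kilobase, Mmp14 with 164 ± 40.4, Mmp2 with 128 ± 18.9, Adam19 with 127 ± 13.3 and Timp1 with 67.9 ± 22.8. The range from Adam15 to Timp1 was 12.2-fold. Neighbours in this order were taken to differ when their means lay further apart than the larger SD and all 3 mice had the same order, and 5 of the 9 neighbouring pairs did. The pairs that did not differ by this rule were Timp2 and Mmp15, Adamts9 and Mmp14, Mmp14 and Mmp2, and Mmp2 and Adam19.

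Most of the 10 genes were in the upper part of the 17475 listed genes with a length. The median member lay above 81.7% of them, and 9 of the 10 lay above the midpoint. Adam15 lay above 99.7% of genes per kilobase, Timp3 above 98.8%, Timp2 above 95.8% and Mmp15 above 95.4%. These 4 genes were in the highest 10% of genes, the background for that rule being 10.0%, and Adamts1 was just outside with 89.5%. Timp1, above 48.5% of genes, was the only one under the midpoint. The length matters most for Adam15 and Mmp14, whose annotated exons joined over all transcripts measure 7942 and 6166 bases, against 2825 and 2787 bases in the canonical transcript. Divided by this exonic length, the level of Adam15 was 294 per kilobase and that of Mmp14 74.2, and Mmp15 became the highest of the 10 genes with 428. The level was also more than 1.5 times lower on this scale for Timp1 with 32.5, Adamts9 with 98.5 and Timp3 with 372. By exonic length 5 of the 10 genes were in the highest 10% of genes, Adamts1 among them, above 97.1%. Removal of duplicate reads, which the study applied, allows about 1 read per start position. Adam15 had 0.825 per base of its canonical transcript, a value that 44 genes including Adam15 reached. On this scale 14 genes exceeded 1 per base, so 1 was not a strict ceiling. How far duplicate removal held down the count of Adam15 was not tested. Per base of all annotated exons Adam15 had 0.294. Which of the lengths corresponds to the RNA present was not tested.

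Pairs of genes with linked roles were compared by the log2 ratio of their levels per kilobase within each mouse. With 3 mice the smallest two-sided p of an exact sign-flip permutation test is 0.25, which keeps all 7 pairs above 0.05 by design. All 7 had p = 0.25 in the exact test, also after Benjamini-Hochberg adjustment, since each had the same direction in 3 of 3 mice. Mmp14 was 2.8-fold lower than Mmp15, with log2 ratios of -1.89, -1.16 and -1.40 in mice 1, 2 and 3 and a mean of -1.48 ± 0.37 (SD, n = 3). By exonic length the mean was -2.56 ± 0.37, or 5.89-fold lower. Mmp14 exceeded Mmp2, whose precursor it activates, by a log2 ratio of 0.34 ± 0.24. The direction of that pair rested on the length, being -0.61 ± 0.24 by exonic length. Timp3 exceeded Timp2 by 0.48 ± 0.10, and by exonic length the 2 genes were near equal at -0.06 ± 0.10. Timp2 exceeded Timp1 7.04-fold, with a log2 ratio of 2.81 ± 0.43, and 12.3-fold by exonic length.

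Among the ADAMTS and ADAM pairs, Adamts1 exceeded Adamts9 by a log2 ratio of 0.82 ± 0.09 (SD, n = 3), or 1.76-fold, and by 1.60 ± 0.09 when exonic length was used. Adam15 exceeded Adam19 6.52-fold, with a log2 ratio of 2.7 ± 0.18, and 2.65-fold by exonic length. On the canonical scale Adam15 had 0.825 per base against 0.127 for Adam19. Duplicate removal could have lowered this fold, by an amount that was not tested. The summed level of Timp1, Timp2 and Timp3 exceeded that of Mmp2, Mmp14 and Mmp15 by a log2 ratio of 0.66 ± 0.06, or 1.58-fold, with 0.71, 0.59 and 0.68 in mice 1, 2 and 3. By exonic length this ratio was 0.37 ± 0.04. The sums leave out Timp4, with 426 per kilobase, and the other listed MMP genes. The ratio compares RNA levels, and protein or activity was not measured.

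**Figure D2:**
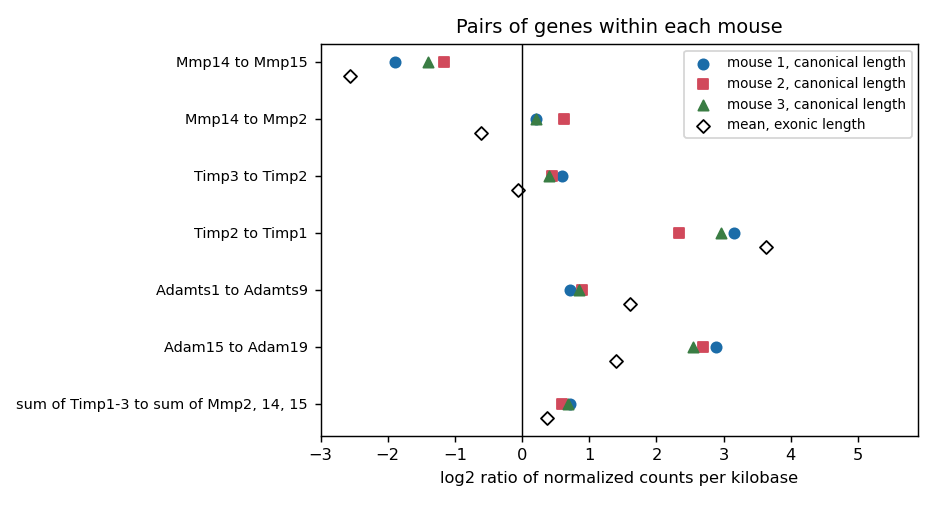
Log2 ratio of normalized counts per kilobase for the 7 pairs, 1 filled point per mouse by canonical length, and the mean of 3 mice by exonic length as an open diamond. The mice lie on the same side of 0 in each pair, and the diamonds of Mmp14 to Mmp2 (-0.61) and Timp3 to Timp2 (-0.06) lie on the other side.

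By canonical length, Mmp15, Timp3, Adamts1 and Adam15 were each the highest gene of their family, whereas Timp1 was the lowest TIMP and Adam19 came after 4 other ADAM genes. The table lists 15 MMP genes, and of their summed level per kilobase Mmp15 took 43.3% ± 1.31, Mmp14 15.7% ± 3.54 and Mmp2 12.2% ± 1.67 (SD, n = 3 mice). By exonic length Mmp15 took 51.7% and stayed first, and Mmp2 and Mmp14 changed places. The next MMP genes were Mmp28 with 101 normalized counts per kilobase, Mmp11 with 69.8 and Mmp17 with 57.3. Of the 20 other MMP symbols searched, 12 were listed and 2 of these had a mean of at least 200. The background for that mean, here and for the lists below, was 9358 of the 17583 genes. The inflammatory gelatinase gene Mmp9 had 1, 1 and 4 normalized counts and was among the lowest, with 0.0606% ± 0.0525 of the summed level. The symbols not found were Mmp1a, Mmp1b, Mmp7, Mmp8, Mmp10, Mmp20, Mmp21 and Mmp27, and the table holds no gene whose highest value is under 4.

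Among the 4 TIMP genes, Timp3 took 40.2% ± 0.362 of the summed level per kilobase, Timp2 28.9% ± 1.90 and Timp1 4.27% ± 1.5 (SD, n = 3). The rest belonged to Timp4, the TIMP known for its high level in heart tissue, which had 2682, 2094 and 2379 normalized counts and 26.7% ± 3.07. By exonic length Timp2 came first with 35.2% and Timp3 second with 33.8%. Among other inhibitor genes Tfpi2, a serine protease inhibitor of the matrix, had 170 per kilobase, below Timp2, Timp3 and Timp4 and above Timp1. Of the 5 other inhibitors reported, all 5 were listed and 4 had a mean of at least 200.

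Adamts1 took 34% ± 0.641 and Adamts9 19.3% ± 1.11 of the summed level per kilobase of the 16 listed ADAMTS genes (SD, n = 3), and they were first and second by either length. The next were Adamts10 with 152 per kilobase, Adamts7 with 83.7 and Adamts5 with 55.1. Of the 17 other ADAMTS symbols 14 were listed, 4 of them with a mean of at least 200. The ADAMTS-like genes, which lack the protease domain, were also modest, with 7 of 8 symbols listed and the highest levels in Adamtsl4 (86.8 per kilobase), Adamtsl5 (81.7) and Papln (80.4). Adam15 took 41.7% ± 1.57 of the 12 listed ADAM genes and Adam19 6.41% ± 0.645. The alpha-secretase genes stood between them by canonical length, Adam10 with 385 per kilobase, Adam17 with 261 and Adam9 with 252. By exonic length Adam10 came first with 27.2% and Adam15 second with 24.9%. Of the 16 other ADAM symbols 10 were listed, 4 of them with a mean of at least 200.

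**Figure D3:**
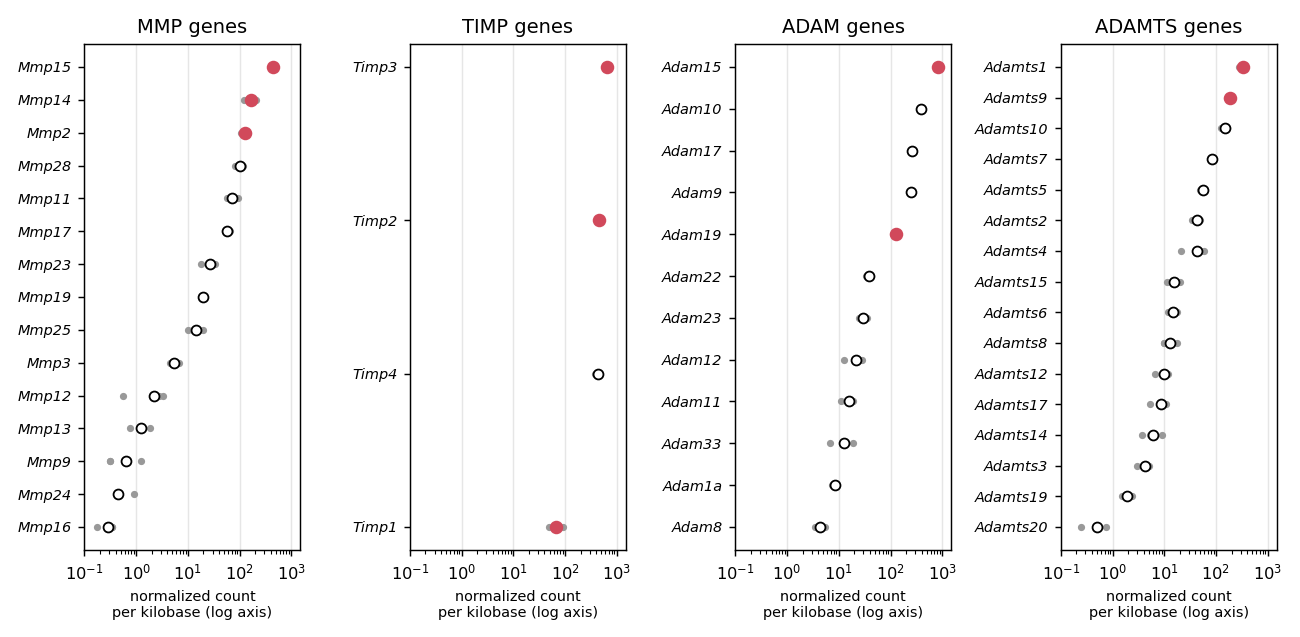
Normalized counts per kilobase of canonical transcript (log axis) of all listed MMP, TIMP, ADAM and ADAMTS genes, with large filled points for the means of the 10 chosen genes, open points for the means of the others and small grey points for single mice (a value of 0 is not drawn). Mmp15, Timp3, Adam15 and Adamts1 lead their panels with 450, 641, 825 and 327 per kilobase.

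Genes whose products activate, bind or clear these proteases were present too. The convertase gene Furin, whose product cleaves the pro-domains of membrane-type MMPs and of ADAMs and ADAMTSs, had 379 normalized counts per kilobase, and its relatives Pcsk7 and Pcsk6 had 202 and 164. All 4 convertase genes had a mean of at least 200. Of the 8 genes for surface partners and clearance, all 8 did, led by the caveolin gene Cav1 with 838 per kilobase, Bsg (CD147 or basigin, known as an inducer of MMPs) with 575 and the integrin gene Itgb1 with 486. Of the 11 genes listed as substrates or related matrix genes, 10 had a mean of at least 200. Over all genes, 9358 of 17583 had such a mean. The highest were the endothelial surface genes Cdh5 with 713 per kilobase, Kdr with 554 and Tek with 472. Vcan, the gene of the ADAMTS substrate versican, was the exception with 43, 123 and 77 normalized counts.

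The 10 genes differed in how much they varied between mice. Timp3 and Mmp15 varied by 1.01% and 2.29% of their mean, where counting alone would give 1.82% and 2.08%. With duplicates removed, differences between mice can be compressed as values approach 1 per base of canonical transcript. Timp3 stood at 0.641 per base and Mmp15 at 0.45. Timp2 stood at 0.461 and Adam15 at 0.825, with larger CVs than these 2 genes. Whether duplicate removal lowered the spread of Timp3 and Mmp15 was not tested. Adam15 had a CV of 5.38%, Timp2 6.80%, Adamts9 8.98%, Adam19 10.5%, Adamts1 14.1%, Mmp2 14.9%, Mmp14 24.6% and Timp1 33.6%. Among the 9 chosen genes at a mean of 200 or more, 1 had a CV over 20%, Mmp14, against a background of 8.00% of the 9358 genes of that level. The count among the chosen genes is too small to set against that share. The median CV of these 9 genes was 8.98%, and that of the 9358 genes 7.37%. The call of Mmp14 rested on mouse 1. Without mouse 1 no chosen gene passed the rule and the CV of Mmp14 was 14.6%, without mouse 2 Mmp14 and Mmp2 did with 20.9% and 20.8%, and without mouse 3 Mmp14 alone did. The share of all genes that passed was 4.84%, 9.86% and 8.71% in turn.

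**Figure D4:**
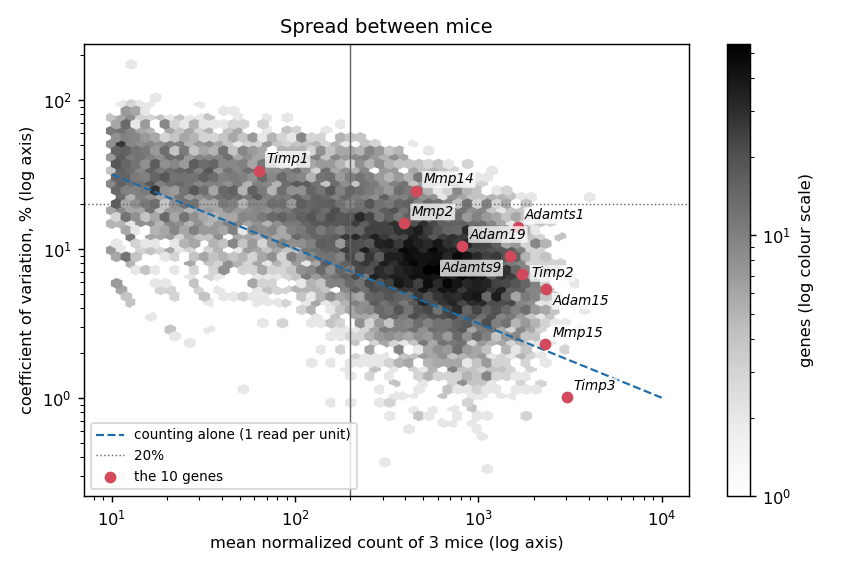
Coefficient of variation over 3 mice against the mean normalized count (both log axes) for all genes with a mean of at least 10 (grey, darker with more genes) and the 10 genes (red), with the spread of counting alone as a dashed line. Mmp14 (24.6%) is the only one of them above the 20% line to the right of the vertical line at a mean of 200, and Timp3 (1.01%) lies below the dashed line.

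Mouse 1 had the lowest value of 7 of the 10 genes, Mmp14, Mmp2, Timp1, Timp2, Adamts1, Adamts9 and Adam19, and of 6 of the 9 at a mean of 200 or more. The background for a lowest value in mouse 1 was 32.2% of the 9358 genes with that mean. The same 7 genes were lowest in mouse 1 under scaling by trimmed means and under scaling to equal totals. The median log2 ratio of mouse 1 to the mean of the other mice was -0.22 over the 9 genes and 0.01 over all genes of that level. The ratio was -0.70 for Timp1, -0.59 for Mmp14, -0.37 for Mmp2 and Adamts1, -0.27 for Adam19, -0.22 for Adamts9 and -0.16 for Timp2. It was 0.02 for Mmp15, 0.01 for Timp3 and 0.00 for Adam15. These last 3 genes were those with the highest counts.

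Lists of cell type markers differed between the mice, in part with mouse 1 lowest and in part not. Of the fibroblast markers 8 of 10 were lowest in mouse 1, with a median log2 ratio to the other mice of -0.50, and their summed level per kilobase was 825 in mouse 1, 1070 in mouse 2 and 1210 in mouse 3. None of them was at 0, and Col1a1, the gene of a collagen I chain, had 378, 642 and 401 normalized counts, while Postn, which encodes the injury-induced matrix protein periostin, had 344, 741 and 671. Of the leukocyte markers found 8 of 9 were lowest in mouse 1, of the mural markers 6 of 10 and of the lymphatic markers 5 of 5, with median log2 ratios of -0.72, -0.47 and -0.47. The T cell marker Cd3e was not found. The summed level per kilobase in mice 1, 2 and 3 was 342, 400 and 390 for the leukocyte list, 713, 770 and 894 for the mural list, and 752, 889 and 966 for the lymphatic list. Of the cardiomyocyte markers, in contrast, 3 of 10 were lowest in mouse 1, with a median log2 ratio of 0.13 and summed levels of 5350, 5290 and 4950 in mice 1, 2 and 3. Of the endocardial markers 2 of 5 were, with a median of -0.19 and summed levels of 1760, 1430 and 2240, the lowest in mouse 2. Of the mesothelial markers 3 of 4 were, with a median of -0.36 and summed levels of 273, 332 and 301. Most of these sums came from 1 gene, Wt1, with 261, 316 and 281 per kilobase. Of the endothelial markers 1 of 10 was lowest in mouse 1, with a median log2 ratio of 0.03 and summed levels of 6100, 5960 and 5980. The endothelial markers had from 0.26 (Vwf) to 0.747 (Pecam1) counts per base of canonical transcript, the fibroblast markers at most 0.188 (Lum). How far duplicate removal compressed differences between mice in the endothelial markers was not tested. The part of these markers, and of the sex-linked difference of mouse 1, in the levels of the proteases and inhibitors was not tested.

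**Figure D5:**
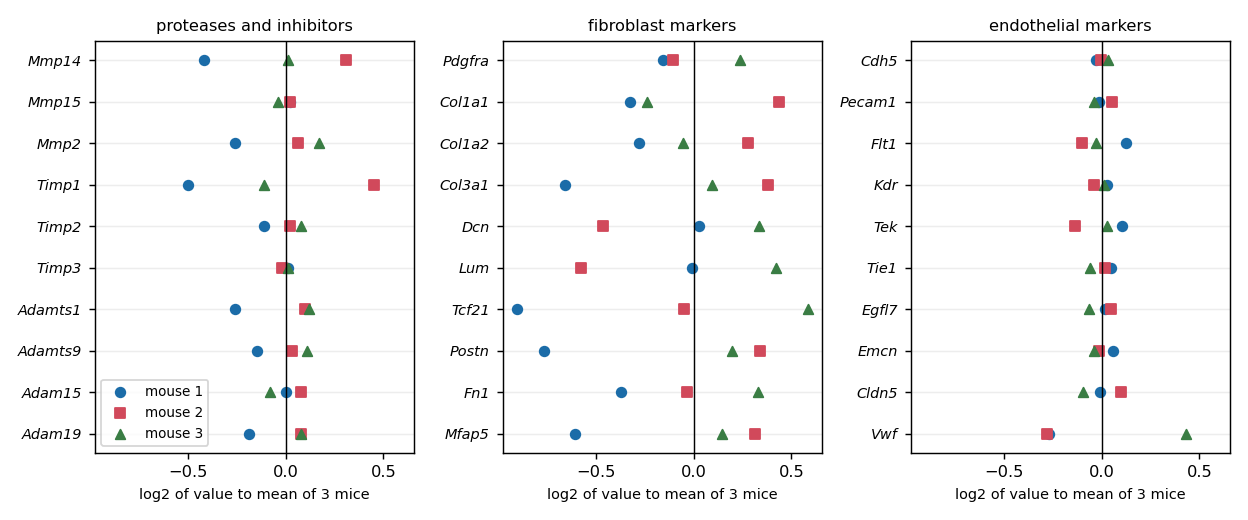
Log2 of each mouse's normalized count to the mean of 3 mice, for the 10 genes, the 10 fibroblast markers and the 10 endothelial markers. Mouse 1 lies to the left in Timp1 (-0.50), Mmp14 (-0.42), Mmp2 (-0.26) and Adamts1 (-0.26), and in most fibroblast markers, while the mice lie close together in Timp3, Mmp15 and most endothelial markers. How far duplicate removal compressed differences in the genes with the most counts per base was not tested.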

How the data were processed

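RNA bound to HA-tagged ribosomes was sequenced from hearts of 3 EC-RiboTag mice as single-end reads of 72 bases. The authors trimmed with Trimmomatic 0.39, aligned to mm39 with STAR 2.7.11a, removed duplicate (Picard 3.1.1), multi-mapping, ribosomal and mitochondrial reads, counted by strand with featureCounts 2.0.4 and normalized with DESeq2 1.36.0. The deposited unit is a score, namely counts divided by a size factor and rounded to whole numbers. No count test was therefore run. Sequencing depth was inferred from gaps and double-filled integers among low values.

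Levels are means ± SD over mice. The labels call the libraries biological replicates. Lengths came from GENCODE M39, matched for 99.4% of genes. The genes named are the 10 members and the 3 highest per kilobase of each list, of which 1 is not reported here, and Mmp9, Vcan, Col1a1, Postn, Cd3e, Xist and Ddx3y were named after values were seen. Members and lists were chosen with earlier results of these data known. Alternatives were other lengths, scaling by trimmed means (30% of log ratios and 5% of levels) or equal totals, other minimum means, ranking by the median, and leaving out each mouse. Python 3.11.15, numpy 2.4.6, pandas 2.3.3, scipy 1.17.1, Biopython 1.88, matplotlib 3.10.9 and BLAST 2.17.0 were used, and the scripts were tested on simulated data.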

Additional observations from a re-analysis of the deposited data

How the results depend on the processing

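Exonic length and no division by length gave 14 alternative values for the 7 pair ratios, of which 12 kept their direction. Both exceptions came from exonic length, with a log2 ratio of -0.61 for Mmp14 to Mmp2 and -0.06 for Timp3 to Timp2. The median share of genes below the 10 genes, 81.7%, was 87.7% by exonic length, 96.5% with no division by length and 75.9% among protein-coding genes with a mean of at least 10. With a mouse left out it stayed within the spread between mice, as it did when genes were ranked by the median. The number of genes with a CV over 20%, 1, was 2 with no minimum mean (35.9% of all genes) and between 0 and 2 with a mouse left out, and it was also 1 under both other scalings and with a mean of at least 100. The pair ratios had the same sign in all 3 mice, so leaving out a mouse could not turn them. Timp1 has the largest counting error of the 10 genes, 12.5% of its mean, which is still below its observed spread of 33.6%.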
